A study of Homo sapiens with 24 samples.

Results

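The genes described here are the amino acid transporters of 6 solute carrier families, SLC1, SLC6, SLC7, SLC36, SLC38 and SLC43, measured as messenger RNA in macrophage-like cells given the trichloroethylene metabolite DCVC, bacterial lipopolysaccharide, or both. Members were taken by symbol alone: every symbol of these families followed by a number, with no pseudogene or antisense suffix, and without the cystine exchanger gene SLC7A11. This gave 55 members among 38735 named genes. SLC38A10 was not analysed here. Of the 55 members, 24 had a mean of at least 10 normalized counts over the libraries and were tested. A further 23 had reads but lay under that mean, and 8 had no read in any library. A count of 0 allows an expected count of at most 3 reads in that library, at 95% confidence. The members without reads were SLC1A6, SLC6A5, SLC6A18, SLC7A3, SLC7A4, SLC7A13, SLC36A2 and SLC38A11.

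Amino acids cross membranes mainly through carriers, and these families divide the work by substrate and by driving force. SLC1 carriers take up glutamate with sodium or exchange small neutral amino acids, SLC6 carriers use sodium and chloride to take up taurine, creatine, betaine, glycine and neurotransmitters, and SLC38 carriers bring in glutamine and alanine with sodium. The SLC7 family holds carriers of arginine and lysine, and light chains that work as exchangers only when joined to a heavy chain, SLC3A2 or SLC3A1. SLC36 carriers are coupled to protons and sit largely in lysosomes and at the cell surface, and SLC43 carriers let large neutral amino acids pass down their gradient. In macrophages, arginine uptake feeds nitric oxide synthase and arginase, and leucine, glutamine and arginine carried into the cell or out of the lysosome set the activity of the growth kinase complex mTORC1.

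The cells were THP-1, 1 established human monocytic leukaemia line, differentiated with the phorbol ester PMA at 100 nM in all groups. Control cells then received medium. S-(1,2-dichlorovinyl)-L-cysteine (DCVC, 5 µM) was given to DCVC cells for 24 h, LPS cells received lipopolysaccharide at 100 ng/mL for 4 h, and DCVC_LPS cells received DCVC for 24 h followed, after a change of medium, by LPS for 4 h. Each group held 6 libraries lettered A to F. The labels do not state that these came from separate cultures, so a p-value here sets a difference against the spread of these libraries alone, and that spread may be technical. The series title asks whether DCVC inhibits the inflammatory response to LPS.

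Each library had between 18478618 and 30107819 reads in genes with a name. All 10 macrophage and monocyte markers passed the minimum mean, and their summed level ran from 61488 to 75015 normalized counts in Control, 45728 to 52091 with DCVC, 31268 to 34576 with LPS and 33651 to 37425 in DCVC_LPS. The 5 T cell markers summed to 1964 to 2526 in Control, 1377 to 1880 with DCVC, 127 to 324 with LPS and 176 to 331 with both, with only TRAC over the minimum mean and CD2 without a read. The 4 B cell markers summed to 101 to 279 with LPS alone and 24.2 to 62.2 in the other groups, and the 4 epithelial markers to 1.48 to 35.3 over all libraries, none of them over the minimum mean. The 4 fibroblast markers ran from 306 to 498 without DCVC and from 55.4 to 122 with it, and the 4 endothelial markers from 112 to 256 and from 351 to 636. The part these levels play in the results below was not tested. In bulk RNA, fewer cells of a kind and less RNA per cell cannot be told apart.

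Taken over the 24 tested members, transporters moved in both directions under every treatment. Changes are log2 changes ± standard error of log2(normalized count + 1), and a gene is called raised or lowered at a Benjamini-Hochberg adjusted p under 0.05 over 13900 genes in limma. With LPS alone 12 members were raised and 9 lowered, or 87.5% called against 78.4% of all tested genes (37.8% raised and 40.6% lowered). With DCVC alone 6 were raised and 11 lowered, or 70.8% against 59.7% (27.5% and 32.2%). In LPS-treated cells DCVC raised 7 and lowered 12, or 79.2% against 72.7% (33.3% and 39.4%). In DCVC-treated cells LPS raised 10 and lowered 9, or 79.2% against 62.1% (29.9% and 32.2%). The 2 groups compared did not overlap for 15, 12, 18 and 15 members in these comparisons, or 62.5%, 50%, 75% and 62.5%, beside 56.8%, 36.5%, 51.7% and 45.1% of all tested genes. Calls with a log2 change of at least 1 in either direction numbered 11, 9, 10 and 10, beside 36.5%, 16.8%, 27.4% and 18.6% of all tested genes. The members' median change was 0.29, -0.02, -0.52 and 0.06 in these 4 comparisons, beside -0.03, -0.03, -0.07 and -0.03 over all tested genes. A member such as SLC1A2 reached the minimum mean only through the groups given LPS and had to differ, so these counts describe the tested members and not all 55.

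The groups had unequal totals of normalized counts, on average 21135356 in Control, 17774466 with DCVC, 29427331 with LPS and 21831254 in DCVC_LPS. Scaling every library to the same total shifted the median log2 change of all tested genes by -0.47 for LPS, 0.25 for DCVC, 0.43 for DCVC in LPS-treated cells and -0.29 for LPS in DCVC-treated cells. On that scale LPS raised 8 members and lowered 11, beside 22.4% and 59.5% of all tested genes. DCVC raised 9 and lowered 10 (46.1% and 20.1%), DCVC in LPS-treated cells raised 9 and lowered 10 (54.5% and 21.9%), and LPS in DCVC-treated cells raised 7 and lowered 12 (16.3% and 52.7%). Within the letter pairs A and B, C and D, and E and F taken alone, LPS raised 12, 13 and 13 members and lowered 7, 9 and 7, where 74.3%, 77.4% and 67.3% of all tested genes were called. DCVC raised 7, 8 and 5 and lowered 13, 11 and 11 (56.7%, 62.3% and 40.3% of all). In LPS-treated cells DCVC raised 7, 7 and 6 and lowered 15, 13 and 13 (70.7%, 74.2% and 57.6%), and LPS in DCVC-treated cells raised 11, 12 and 11 and lowered 9, 10 and 7 (56.6%, 60.6% and 49.6%).

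The 55 members together held a small share of the RNA in every group. Summed over them, the lowest, median and highest library had 35976, 41865 and 45454 normalized counts in Control, 33087, 37568 and 40856 with DCVC, 51381, 54820 and 59841 with LPS, and 34705, 38271 and 39268 in DCVC_LPS. LPS libraries lay above all others on this scale. As a share of the total the medians were 0.195%, 0.209%, 0.184% and 0.175%, and the ranges of LPS (0.179% to 0.202%) and Control (0.177% to 0.216%) overlapped, whereas DCVC_LPS (0.157% to 0.179%) lay below DCVC (0.192% to 0.226%).

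**Figure D1:**
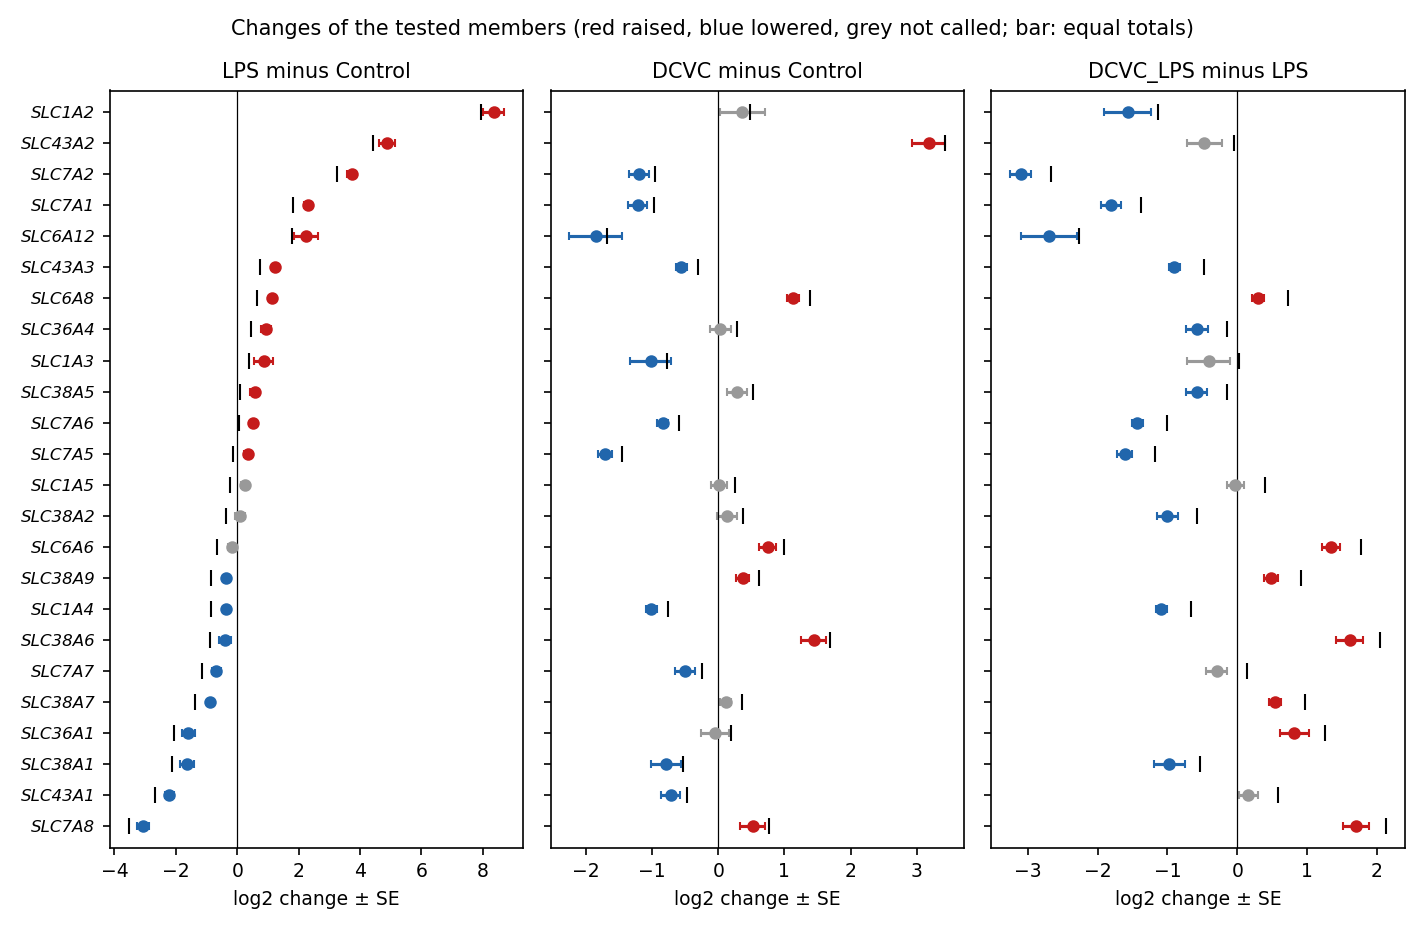
Log2 change (x axis, points with standard error) of the 24 tested members (y axis) for LPS minus Control, DCVC minus Control and DCVC_LPS minus LPS, with red for raised, blue for lowered, grey for not called, and a black bar for the change after scaling to equal totals. SLC1A2, SLC43A2 and SLC7A2 stand at the right with LPS, and SLC7A8 at the left.

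The arginine and lysine carriers SLC7A1 and SLC7A2 rose with LPS, and DCVC lowered both at either LPS setting. SLC7A1 (chromosome 13, 29509410 to 29595688, minus strand, GRCh38), the widely expressed carrier of cationic amino acids, ran from 1188 to 2249 normalized counts (median 1384) in Control, 571 to 923 (605) with DCVC, 6637 to 8987 (8012) with LPS and 1930 to 2424 (2241) in DCVC_LPS. LPS libraries were far above the rest, DCVC libraries below all others, and the Control and DCVC_LPS ranges overlapped. The change was 2.31 ± 0.14 with LPS (adjusted p = 1.53e-13), -1.22 ± 0.14 with DCVC (adjusted p = 8.5e-08) and -1.81 ± 0.14 with DCVC in LPS-treated cells (adjusted p = 4.12e-11). SLC7A2, the carrier of the same substrates known to be inducible in activated macrophages, ran from 86.2 to 177 (median 122) in Control, 42 to 70.5 (51.9) with DCVC, 1489 to 1770 (1678) with LPS and 144 to 241 (187) in DCVC_LPS. Only the Control and DCVC_LPS ranges overlapped. Its change was 3.73 ± 0.15 with LPS (adjusted p = 5.52e-17), a 13.3-fold difference, and 1.83 ± 0.15 with LPS in DCVC-treated cells (adjusted p = 1.71e-10), a 3.55-fold difference. In LPS-treated cells DCVC lowered it by -3.10 ± 0.15 (adjusted p = 1.06e-14), the largest fall of any member in that comparison. Of the 5 cationic SLC7 members, SLC7A3 and SLC7A4 had no read and SLC7A14 had 30 reads or fewer.

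Promoters of members were searched for the core of the amino acid response element, TGATGNAA, and of the antioxidant response element, TGACNNNGC, on both strands, in RefSeq windows (GRCh38.p14) of 300 bases around each listed start. The first stood in 5 of 38 windows of the 19 tested members with an entry, beside 3.62% of 35116 windows, and the second in 6 of 38, beside 13.3%. A match is a description of the letters and not a binding site, and the 2 motifs did not overlap where printed. SLC1A2, SLC6A6, SLC6A12, SLC7A2 and SLC43A3 had no entry. Windows of 3 members that DCVC lowered are shown, from 250 bases before the start to 20 after it, with matches in capitals. They belong to SLC7A1 (chr13:29595669-29595938, minus strand), SLC7A5 (chr16:87869488-87869757, minus strand) and SLC1A4 (chr2:64989149-64989418, plus strand). Each of these windows holds a match, and they do not stand for the other members. Another window of SLC1A4 held no match. Whether a match goes with a change was not tested.
SLC7A1: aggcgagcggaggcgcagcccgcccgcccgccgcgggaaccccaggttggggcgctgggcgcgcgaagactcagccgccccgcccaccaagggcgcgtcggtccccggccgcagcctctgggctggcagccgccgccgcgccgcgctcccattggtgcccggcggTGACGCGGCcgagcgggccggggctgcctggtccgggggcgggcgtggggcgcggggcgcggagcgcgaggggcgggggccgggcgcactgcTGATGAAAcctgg
SLC7A5: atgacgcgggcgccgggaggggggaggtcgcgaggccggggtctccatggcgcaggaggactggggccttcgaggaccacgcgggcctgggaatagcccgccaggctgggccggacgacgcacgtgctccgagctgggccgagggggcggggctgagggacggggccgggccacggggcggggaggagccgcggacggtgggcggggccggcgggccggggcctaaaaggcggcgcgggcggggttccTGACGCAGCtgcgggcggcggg
SLC1A4: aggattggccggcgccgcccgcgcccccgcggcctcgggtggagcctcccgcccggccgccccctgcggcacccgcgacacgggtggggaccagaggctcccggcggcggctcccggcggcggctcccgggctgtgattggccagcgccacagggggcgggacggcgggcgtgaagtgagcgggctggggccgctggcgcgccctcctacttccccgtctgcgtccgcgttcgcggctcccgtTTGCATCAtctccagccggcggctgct
SLC7A1 held TGACGCGGC, beginning 85 bases before the start, and TGATGAAA, beginning 7 bases after it. SLC7A5 held TGACGCAGC beginning 2 bases before its start, and SLC1A4 held TGATGCAA on the opposite strand, printed above as its reverse complement, in a match that begins 7 bases before the start. SLC1A5, which DCVC did not move past the test, also held both motifs, in different windows at 97 and 111 bases before the listed starts.

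**Figure D2:**
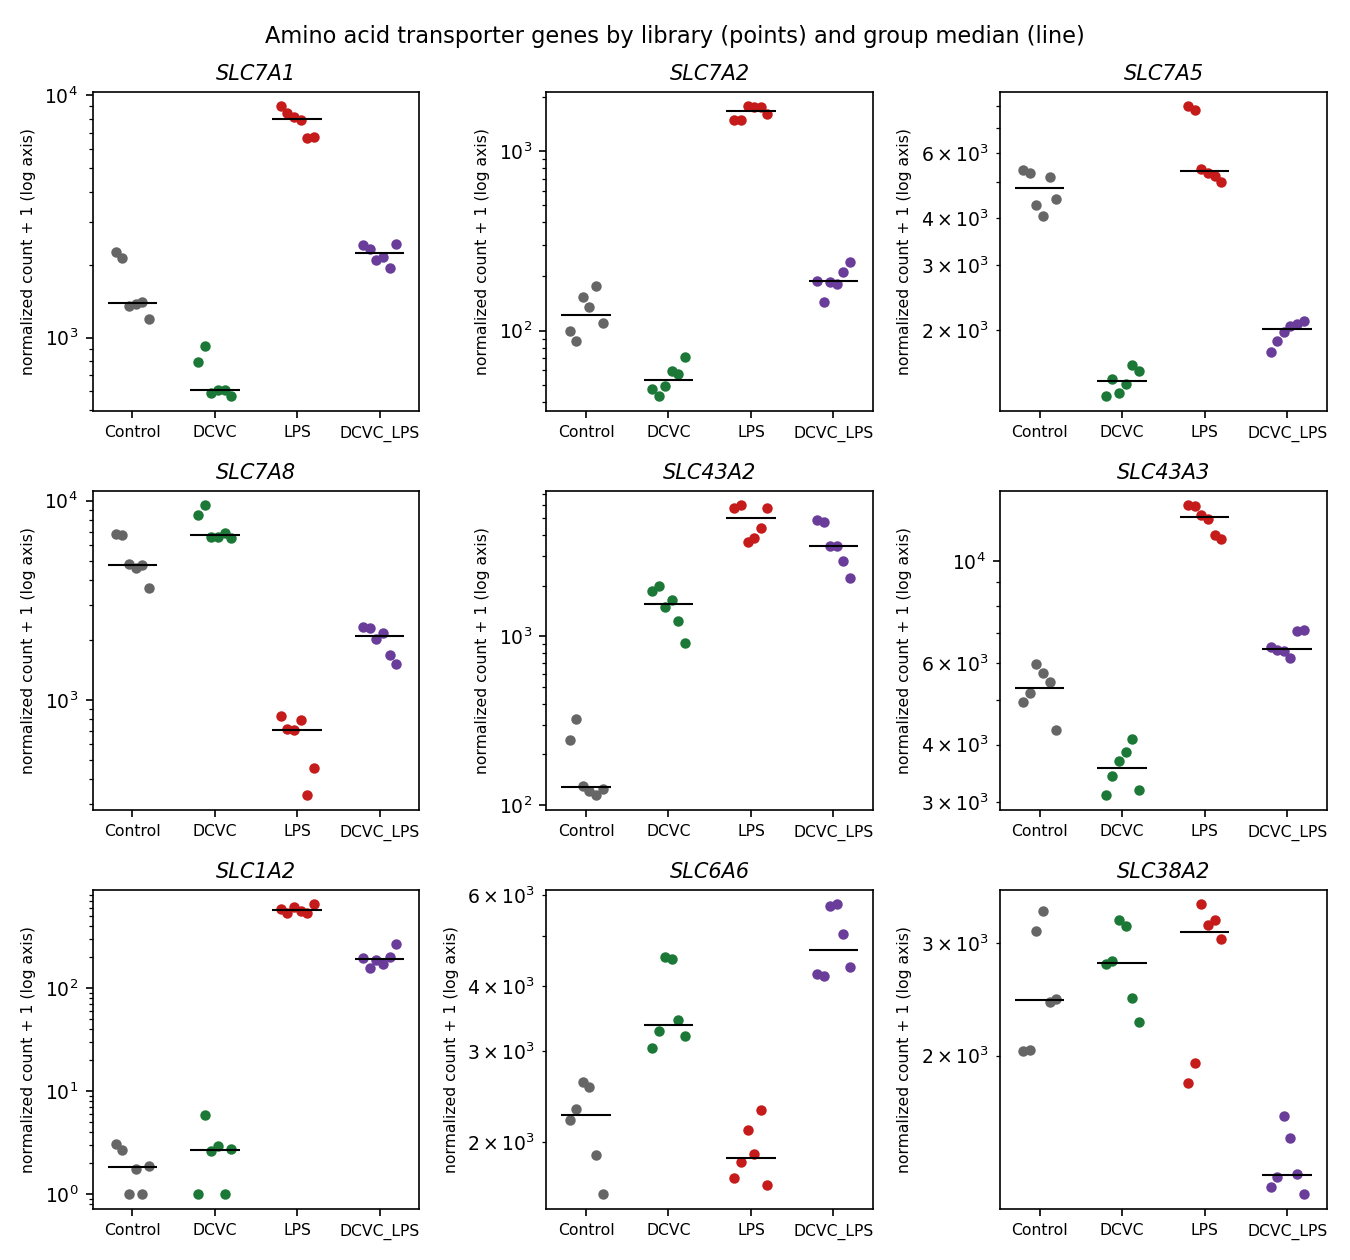
Normalized count + 1 (y axis, log scale) of 9 members in each of the 24 libraries (points, letters A to F from left to right) by group (x axis), with the group median as a line. SLC7A1, SLC7A2 and SLC43A3 are highest in LPS, SLC6A6 is highest in DCVC_LPS, and SLC7A5 separates the groups without DCVC from those with it.

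Among the light chains, SLC7A5 fell with DCVC whether or not LPS followed, while SLC7A8 fell steeply with LPS and less after DCVC. SLC7A5 (chromosome 16, 87830023 to 87869488, minus strand), the main exchanger of leucine and other large neutral amino acids in growing cells, ran from 4054 to 5391 normalized counts (median 4841) in Control, 1327 to 1610 (1458) with DCVC, 5015 to 7999 (5374) with LPS and 1746 to 2112 (2010) in DCVC_LPS. Every library given DCVC lay below every library that was not. In LPS-treated cells the change with DCVC was -1.61 ± 0.11 (adjusted p = 1.86e-12), beside -1.71 ± 0.11 without LPS (adjusted p = 2.22e-12). LPS itself changed it by 0.34 ± 0.11 (adjusted p = 0.00592) with overlapping groups, and by -0.14 (adjusted p = 0.217) at equal totals. The pseudogene SLC7A5P1 had medians of 61.5, 19, 81.9 and 23 in the 4 groups in the same order, and reads shared between the copies may have been split in counting.

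SLC7A8 (chromosome 14, 23125295 to 23183674, minus strand), a second exchanger of large neutral amino acids, ran from 3658 to 6784 normalized counts (median 4777) in Control, 6500 to 9457 (6729) with DCVC, 331 to 834 (708) with LPS and 1520 to 2333 (2094) in DCVC_LPS. LPS libraries were the lowest, DCVC_LPS libraries next, and the Control and DCVC ranges overlapped. The change with LPS was -3.07 ± 0.19 (adjusted p = 2.04e-13) without DCVC and -1.89 ± 0.19 (adjusted p = 5.46e-09) after it. DCVC raised SLC7A8 by 1.70 ± 0.19 in LPS-treated cells (adjusted p = 2.13e-08). Without LPS it was raised by 0.52 ± 0.19 (adjusted p = 0.0212), a call lost without Control F (adjusted p = 0.0607) or DCVC B (adjusted p = 0.0563).

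SLC7A6 and SLC7A7 encode light chains that exchange arginine or lysine for neutral amino acids with sodium. SLC7A6 ran from 600 to 764 normalized counts (median 726) in Control, 367 to 420 (385) with DCVC, 853 to 1141 (1022) with LPS and 320 to 410 (366) in DCVC_LPS. Here the libraries with DCVC overlapped each other and lay below those without it. SLC7A6 fell by 0.84 ± 0.08 with DCVC (adjusted p = 2.95e-09) and by 1.43 ± 0.08 with DCVC in LPS-treated cells (adjusted p = 7.62e-14). LPS raised SLC7A6 by 0.52 ± 0.08 (adjusted p = 1.67e-06) on the deposited scale, and by 0.04 (adjusted p = 0.609) at equal totals. As 44.4% of its exon bases lie opposite exons of SLC7A6OS and the strand setting of the counting is not given in the sources used here, its values are uncertain. SLC7A7 ran from 1141 to 2576 (median 1784) in Control, 964 to 1428 (1299) with DCVC, 897 to 1203 (1099) with LPS and 713 to 1017 (912) in DCVC_LPS, with overlap between neighbouring groups. It fell by 0.68 ± 0.15 with LPS (adjusted p = 0.000283) and by 0.50 ± 0.15 with DCVC (adjusted p = 0.00664), the latter only -0.25 (adjusted p = 0.162) at equal totals. In LPS-treated cells the change with DCVC was -0.29 ± 0.15 (adjusted p = 0.0876), or adjusted p = 0.0211 with the replicate letters as a block.

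The heavy chain SLC3A2, which is no member but carries these 4 light chains and the SLC7A11 product to the cell surface, went the other way from SLC7A5. SLC3A2 ran from 4682 to 4984 normalized counts (median 4829) in Control, 6212 to 9000 (8168) with DCVC, 4602 to 5155 (4770) with LPS and 11282 to 13763 (12656) in DCVC_LPS. Control and LPS overlapped, and both groups given DCVC stood above them. The change with DCVC was 0.67 ± 0.08 (adjusted p = 9.27e-08) without LPS and 1.38 ± 0.08 (adjusted p = 1.13e-13) with it. SLC3A1, the heavy chain that pairs with SLC7A9 in kidney and intestine, was near the limit of detection, with group medians from 1.71 to 3.53.

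With LPS 2 members of the SLC43 family rose and 1 fell. SLC43A2 (chromosome 17, 1569267 to 1628886, minus strand), a facilitative carrier of leucine, phenylalanine and methionine, ran from 114 to 323 normalized counts (median 127) in Control, 909 to 1981 (1562) with DCVC, 3598 to 5954 (5054) with LPS and 2226 to 4909 (3419) in DCVC_LPS. Control libraries were the lowest and DCVC libraries the next, and the 2 groups given LPS overlapped. The change was 4.88 ± 0.25 with LPS (adjusted p = 3.5e-15), or 29.5-fold, and 3.18 ± 0.25 with DCVC (adjusted p = 1.19e-10), or 9.08-fold. Both comparisons use the same Control libraries. After DCVC the change with LPS was 1.23 ± 0.25 (adjusted p = 0.000125), 3.65 ± 0.35 log2 units less than without it (adjusted p = 1.25e-08). In LPS-treated cells DCVC gave -0.47 ± 0.25 (adjusted p = 0.0921), or adjusted p = 0.00744 with the replicate letters as a block.

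SLC43A1, a carrier of the same kind of substrate, fell under both agents. It ran from 414 to 640 normalized counts (median 563) in Control, 267 to 398 (328) with DCVC, 82.3 to 151 (121) with LPS and 114 to 154 (128) in DCVC_LPS. The 2 groups given LPS were lowest and overlapped. SLC43A1 fell by 2.21 ± 0.14 with LPS (adjusted p = 4.63e-13) and by 0.72 ± 0.14 with DCVC (adjusted p = 0.00014). In LPS-treated cells the change with DCVC was 0.16 ± 0.14 (adjusted p = 0.305) on the deposited scale and 0.59 (adjusted p = 0.00096) at equal totals.

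SLC43A3, whose product carries purine nucleobases rather than amino acids, rose with LPS and fell with DCVC. It ran from 4303 to 5980 normalized counts (median 5320) in Control, 3104 to 4107 (3553) with DCVC, 11186 to 13211 (12468) with LPS and 6169 to 7094 (6457) in DCVC_LPS. No pair of groups overlapped. The change was 1.23 ± 0.08 with LPS (adjusted p = 2.02e-13), -0.56 ± 0.08 with DCVC (adjusted p = 9.89e-07) and -0.90 ± 0.08 with DCVC in LPS-treated cells (adjusted p = 1.89e-10). The transcript AP000781.2 shares 29.9% of the SLC43A3 exon bases on the same strand, so reads there could belong to either and the values are uncertain.

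Of the 4 tested SLC1 members, LPS raised the glutamate carriers SLC1A2 and SLC1A3 and lowered the neutral exchanger SLC1A4, while DCVC lowered SLC1A3 and SLC1A4. SLC1A2 (chromosome 11, 35251205 to 35420063, minus strand), the main glutamate carrier of astrocytes, ran from 0 to 2.1 normalized counts (median 0.833) in Control, 0 to 4.88 (1.7) with DCVC, 528 to 644 (570) with LPS and 156 to 269 (190) in DCVC_LPS. Hardly any read lay in libraries without LPS, with 6 reads in all of Control and 11 in all of DCVC, against 2732 with LPS and 1294 in DCVC_LPS. The ratio of LPS to Control was 629, with a 95% interval for counting error alone of 289 to 1716. SLC1A2 reached the minimum mean only through the groups given LPS, so its rise with LPS had to appear and is a description. In LPS-treated cells DCVC changed it by -1.57 ± 0.34 (adjusted p = 0.000238), with DCVC_LPS libraries all below LPS libraries.

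SLC1A3, the glutamate carrier that is also found in macrophages, ran from 629 to 2033 normalized counts (median 1466) in Control, 267 to 1022 (780) with DCVC, 1547 to 3104 (2481) with LPS and 1172 to 2410 (1941) in DCVC_LPS. Letter B was the highest library in all 4 groups and neighbouring groups overlapped. LPS raised SLC1A3 by 0.86 ± 0.31 (adjusted p = 0.0129), or 0.39 (adjusted p = 0.232) at equal totals, and DCVC lowered it by -1.02 ± 0.31 (adjusted p = 0.00583). In LPS-treated cells the change with DCVC was -0.41 ± 0.31 (adjusted p = 0.233) without the replicate block and adjusted p = 0.00149 with it. At equal totals this change was 0.02 (adjusted p = 0.946).

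SLC1A4, an exchanger of alanine, serine and cysteine, ran from 1682 to 1972 normalized counts (median 1880) in Control, 808 to 1068 (920) with DCVC, 1290 to 1604 (1399) with LPS and 602 to 740 (667) in DCVC_LPS. No groups overlapped, and Control was the highest. SLC1A4 fell by 0.38 ± 0.08 with LPS (adjusted p = 7.07e-05), by 1.01 ± 0.08 with DCVC (adjusted p = 8.1e-11) and by 1.09 ± 0.08 with DCVC in LPS-treated cells (adjusted p = 5.96e-12).

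SLC1A5, the glutamine exchanger and the member with the highest level per length in 3 of the 4 groups, ran from 3620 to 7326 normalized counts (median 4235) in Control, 4247 to 5769 (4649) with DCVC, 4985 to 6083 (5717) with LPS and 5106 to 5840 (5523) in DCVC_LPS. All 4 ranges overlapped, Control A and B being among the highest libraries. Its change was 0.24 ± 0.12 with LPS (adjusted p = 0.078, or 0.0106 with the replicate block), 0.01 ± 0.12 with DCVC (adjusted p = 0.958) and -0.03 ± 0.12 with DCVC in LPS-treated cells (adjusted p = 0.842). In DCVC-treated cells LPS gave 0.21 ± 0.12 (adjusted p = 0.156, or 0.0327 with the replicate block). Its direction depended on the scale: at equal totals the LPS change was -0.23 (adjusted p = 0.0853) and that with DCVC in LPS-treated cells 0.40 (adjusted p = 0.00548). The antisense transcript AC008622.2 covers 23.4% of its exon bases.

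The 3 tested SLC6 members carry osmolytes and creatine, and DCVC raised a pair of them. SLC6A6 (chromosome 3, 14402576 to 14489349, plus strand), the taurine carrier, ran from 1586 to 2609 normalized counts (median 2260) in Control, 3044 to 4547 (3366) with DCVC, 1656 to 2311 (1862) with LPS and 4190 to 5750 (4700) in DCVC_LPS. Libraries given DCVC lay above all libraries that were not. The change with DCVC was 0.75 ± 0.13 (adjusted p = 2.12e-05) without LPS and 1.34 ± 0.13 (adjusted p = 1.15e-09) with it. LPS without DCVC gave -0.18 ± 0.13 (adjusted p = 0.194), or adjusted p = 0.0424 with the replicate block and -0.66 (adjusted p = 3.9e-05) at equal totals.

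SLC6A8, the creatine carrier, ran from 350 to 573 normalized counts (median 443) in Control, 915 to 1023 (937) with DCVC, 800 to 1105 (933) with LPS and 1108 to 1218 (1176) in DCVC_LPS. Control was lowest, DCVC and LPS overlapped, and DCVC_LPS was highest. SLC6A8 rose by 1.12 ± 0.09 with LPS (adjusted p = 2.98e-11) and by 1.13 ± 0.09 with DCVC (adjusted p = 1.94e-10), 2 comparisons that share the Control libraries. In DCVC-treated cells LPS raised it by 0.29 ± 0.09 (adjusted p = 0.00641), a change of 0.00 (adjusted p = 0.989) at equal totals.

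SLC6A12, the betaine and GABA carrier, was scarce. It ran from 10.4 to 25.2 normalized counts (median 14.7) in Control, 0.852 to 8.92 (4.98) with DCVC, 45.8 to 103 (90.3) with LPS and 5.38 to 23 (12.1) in DCVC_LPS. LPS libraries stood above the rest, and DCVC libraries below Control. The change was 2.24 ± 0.40 with LPS (adjusted p = 1.77e-05), -1.85 ± 0.40 with DCVC (adjusted p = 0.000333) and -2.69 ± 0.40 with DCVC in LPS-treated cells (adjusted p = 1.76e-06).

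The sodium-coupled SLC38 carriers split into plasma membrane carriers of glutamine and lysosomal ones. SLC38A1 (chromosome 12, 46183063 to 46270017, minus strand), a glutamine importer, ran from 1837 to 4650 normalized counts (median 4321) in Control, 1340 to 2656 (2232) with DCVC, 732 to 1529 (1142) with LPS and 513 to 606 (555) in DCVC_LPS. DCVC_LPS libraries were below all others. SLC38A1 fell by 1.64 ± 0.22 with LPS (adjusted p = 3.11e-07), by 0.79 ± 0.22 with DCVC (adjusted p = 0.00371) and by 0.97 ± 0.22 with DCVC in LPS-treated cells (adjusted p = 0.000415). SLC38A2, the glutamine and alanine importer known to be induced by amino acid shortage, ran from 2032 to 3367 (median 2441) in Control, 2258 to 3262 (2797) with DCVC, 1811 to 3449 (3123) with LPS and 1212 to 1606 (1298) in DCVC_LPS. The first 3 groups overlapped and DCVC_LPS lay below them all. Neither agent alone moved it past the test, with 0.09 ± 0.15 for LPS (adjusted p = 0.58) and 0.13 ± 0.15 for DCVC (adjusted p = 0.47), while DCVC in LPS-treated cells gave -1.0 ± 0.15 (adjusted p = 2.98e-06). At equal totals the 2 single-agent changes were -0.38 (adjusted p = 0.0243) and 0.38 (adjusted p = 0.0306).

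SLC38A6, a family member of poorly known substrate, rose with DCVC in both settings. It ran from 109 to 192 normalized counts (median 148) in Control, 274 to 492 (418) with DCVC, 82.8 to 164 (103) with LPS and 241 to 461 (314) in DCVC_LPS. Libraries given DCVC lay above all that were not. The change with DCVC was 1.44 ± 0.19 (adjusted p = 4.83e-07) without LPS and 1.61 ± 0.19 (adjusted p = 3.48e-08) with it. LPS gave -0.41 ± 0.19 (adjusted p = 0.0472), a call lost when any of 13 single libraries was left out (adjusted p up to 0.123) and with edgeR (adjusted p = 0.0591). After DCVC the LPS change was -0.24 ± 0.19 (adjusted p = 0.27, or 0.0382 with the replicate block).

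SLC38A9 and SLC38A7 are lysosomal, the first an arginine sensor that signals to mTORC1 and the second a glutamine carrier. SLC38A9 ran from 316 to 440 normalized counts (median 412) in Control, 440 to 539 (505) with DCVC, 257 to 370 (302) with LPS and 363 to 501 (426) in DCVC_LPS, and neighbouring groups overlapped. Its change was -0.36 ± 0.10 with LPS (adjusted p = 0.00182), 0.37 ± 0.10 with DCVC (adjusted p = 0.00216) and 0.49 ± 0.10 with DCVC in LPS-treated cells (adjusted p = 9.47e-05). The change with LPS in DCVC-treated cells, -0.24 ± 0.10 (adjusted p = 0.0334), was lost without any of 6 single libraries (adjusted p up to 0.0889), and also in letters A and B and in E and F taken alone. In letters A and B alone SLC38A9 had a log2 change of -0.02 with LPS (adjusted p = 0.895), and in E and F alone it missed the threshold with LPS (adjusted p = 0.0539), with DCVC (adjusted p = 0.174) and with DCVC in LPS-treated cells (adjusted p = 0.151). SLC38A7 and SLC38A5, the other 2 tested members of the family, had changes between -0.89 and 0.57 in the 4 comparisons.

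Of the proton-coupled carriers, SLC36A1 fell and SLC36A4 rose with LPS. SLC36A1 (chromosome 5, 151437046 to 151492381, plus strand), which exports small neutral amino acids from lysosomes, ran from 1102 to 3012 normalized counts (median 2070) in Control, 1317 to 2710 (1950) with DCVC, 458 to 887 (628) with LPS and 961 to 1233 (1222) in DCVC_LPS. LPS libraries were the lowest. Its change was -1.59 ± 0.21 with LPS (adjusted p = 2.4e-07), -0.05 ± 0.21 with DCVC (adjusted p = 0.863) and 0.82 ± 0.21 with DCVC in LPS-treated cells (adjusted p = 0.00126). SLC36A4, a carrier of proline and tryptophan, ran from 356 to 630 (median 557) in Control, 349 to 649 (594) with DCVC, 808 to 1120 (1001) with LPS and 467 to 764 (723) in DCVC_LPS. LPS libraries stood above all others, and the other 3 groups overlapped. Its change was 0.93 ± 0.16 with LPS (adjusted p = 1.34e-05), 0.03 ± 0.16 with DCVC (adjusted p = 0.898) and -0.58 ± 0.16 with DCVC in LPS-treated cells (adjusted p = 0.00267), the last -0.15 (adjusted p = 0.395) at equal totals. After DCVC the LPS change was 0.32 ± 0.16 (adjusted p = 0.0862), or adjusted p = 6.76e-05 with the replicate block.

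DCVC minus Control and DCVC_LPS minus LPS share no library and can be set against each other. Lowered in both were SLC1A4, SLC6A12, SLC7A1, SLC7A2, SLC7A5, SLC7A6, SLC38A1 and SLC43A3, which are 8 members, or 72.7% of those lowered without LPS and 66.7% of those lowered with it. Over all tested genes the same shares were 71.9% and 58.7%. Raised in both were SLC6A6, SLC6A8, SLC7A8, SLC38A6 and SLC38A9, or 83.3% and 71.4% of the raised members, beside 70.6% and 58.2% over all tested genes. Over all tested genes 736 were called in opposite directions, beside 2698 raised in both and 3218 lowered in both. No member was called in opposite directions, and with only 8 lowered and 5 raised in both this is a description.

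The change with LPS differed between cells given DCVC and cells not given it for 15 members, or 62.5% of those tested beside 45.7% of all genes. It was lower after DCVC for 10 and higher for 5, beside 23.7% and 22% of all genes, and at equal totals lower for 7 and higher for 5, beside 16.1% and 33.1%. At a size of at least 1 it was called for 5 members, beside 14.2% of all genes. Within the letter pairs A and B, C and D, and E and F the lower calls were 9, 12 and 6 and the higher calls 6, 8 and 2, where 42.6%, 51.3% and 20.6% of all tested genes were called. SLC43A2 (-3.65 ± 0.35, adjusted p = 1.25e-08), SLC1A2 (-1.93 ± 0.48, adjusted p = 0.00218) and SLC7A2 (-1.90 ± 0.22, adjusted p = 1.66e-07) had the most negative differences. For SLC43A2 the Control level was the lowest of the 4 groups and the DCVC level was already raised, whereas for SLC1A2 and SLC7A2 the LPS level itself was lower after DCVC. The 2 patterns are not clean alternatives. In LPS-treated cells DCVC also changed SLC43A2 by -0.47 (adjusted p = 0.0921, or 0.00744 with the replicate block). Without LPS, DCVC lowered SLC7A2 too (-1.2, adjusted p = 3.55e-07). The fitted value of SLC1A2 depends on the pseudocount, since Control and DCVC held so few reads. Its ratio of LPS to Control was 629 (289 to 1716) and that of DCVC_LPS to DCVC 120 (67 to 242). These intervals leave out the spread between libraries and so do not test the difference. The SLC1A2 call was lost in letters A and B alone (-1.41, adjusted p = 0.158) and in E and F alone (-1.6, adjusted p = 0.156), but not in C and D. SLC38A2 followed with -1.13 ± 0.22 (adjusted p = 0.000163). SLC7A8 had the highest, 1.18 ± 0.27 (adjusted p = 0.000969), as it fell less with LPS after DCVC. For SLC7A5 the difference was 0.10 ± 0.15 (adjusted p = 0.628), for SLC1A4 -0.08 ± 0.11 (adjusted p = 0.568) and for SLC38A1 -0.18 ± 0.31 (adjusted p = 0.68). For SLC1A3 it was 0.62 ± 0.43 (adjusted p = 0.257), or adjusted p = 0.00149 with the replicate block.

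**Figure D3:**
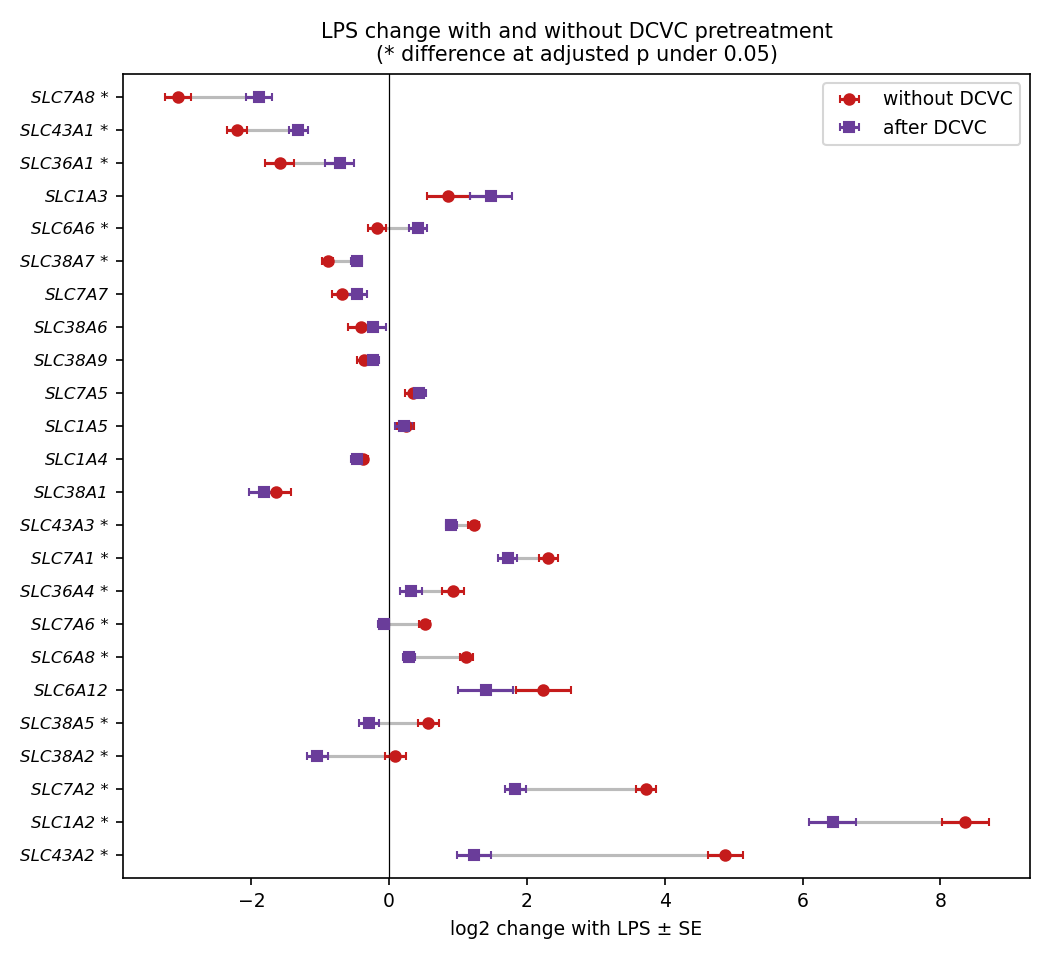
Log2 change with LPS (x axis, standard error as bars) of the 24 tested members (y axis) in cells not given DCVC (red circles) and after DCVC (purple squares), ordered by the difference, with a star where the difference had an adjusted p under 0.05. SLC43A2 moves from 4.88 to 1.23 and SLC7A2 from 3.73 to 1.83, while SLC7A5 stays at 0.34 and 0.43.

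Levels of different genes can be compared only per length, here as normalized counts per kilobase of merged exons in GENCODE 29. Merged exons take in every annotated exon, whether used in these cells or not, with 3332 bases for SLC1A5 and 22835 for SLC1A2. The order below is therefore approximate. In Control the order of the group medians was SLC1A5 (1271), SLC43A3 (1178), SLC7A5 (1020) and SLC7A8 (797), each overlapping its neighbour, and SLC7A8 lay above the next gene, SLC38A1 (431), without overlap. With DCVC the order became SLC1A5 (1395), SLC7A8 (1123) and SLC43A3 (787), and SLC7A5 took the 6th place (307). With LPS it was SLC43A3 (2760), above SLC1A5 (1716), SLC7A5 (1133) and SLC7A1 (1042), and only SLC43A3 was apart from its neighbour among these first 3. SLC7A8 was the 15th with LPS (118). In DCVC_LPS it was SLC1A5 (1657), SLC43A3 (1430), SLC6A6 (569) and SLC7A5 (424), the first pair overlapping and SLC6A6 apart from both neighbours. SLC1A2 and SLC6A12 held the last 2 places in Control, DCVC and DCVC_LPS.

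**Figure D4:**
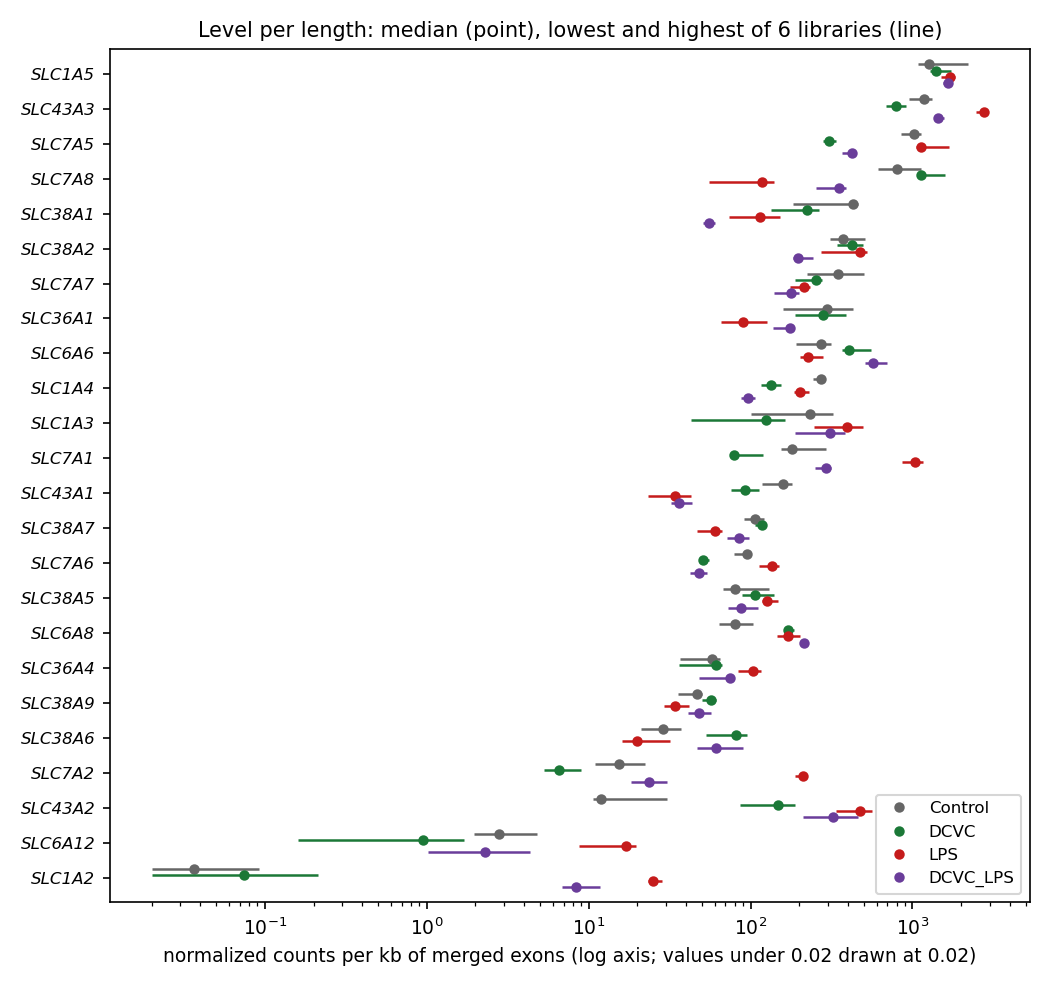
Normalized counts per kilobase of merged exons (x axis, log scale) of the 24 tested members (y axis, in the order of the Control medians), as the group median (points) and the lowest and highest of 6 libraries (lines). SLC1A5 stays near the top in every group, whereas SLC43A2 and SLC7A2 move over more than a factor of 10 between groups.

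Among the 23 members under the minimum mean, 8 had over 30 reads in all. SLC1A7, a glutamate carrier of the retina, had 161 reads in Control, 46 with DCVC, 2 with LPS and 5 in DCVC_LPS. All Control libraries (14.2 to 45.8 normalized counts) were above all DCVC libraries (1.92 to 12.4). With genes down to a mean of 1 included, SLC1A7 fell by 4.16 ± 0.41 with LPS (adjusted p = 1.14e-09), and the read ratio was 0.0172 with a 95% counting interval of 0.00206 to 0.063. SLC1A1, a neuronal and epithelial glutamate carrier, had 129, 39, 23 and 37 reads in the same order of groups, and the DCVC to Control ratio was 0.295 (0.201 to 0.425). SLC6A13, a GABA carrier, had 5, 50, 4 and 39 reads, and SLC6A20, a proline carrier, had 4, 35, 4 and 13. Both lay higher with DCVC than in Control, at a ratio of 9.76 (3.92 to 31.4) for SLC6A13 and 8.54 (3.05 to 33.1) for SLC6A20. They passed the limit of 30 reads only through the groups given DCVC and had to differ, so these ratios are a description. In LPS-treated cells the ratios with DCVC were 7.04 (2.54 to 27.1) for SLC6A13 and 2.35 (0.725 to 9.88) for SLC6A20. SLC6A16, an orphan carrier, had 40, 78, 5 and 38 reads. SLC6A9, the glycine carrier, had 22, 13, 19 and 8, SLC6A7 12, 15, 1 and 8, and SLC7A10 13, 11, 4 and 5. The other 15 had 30 reads or fewer over the 24 libraries and are not compared.

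Genes that work beside the members were counted from lists, to be read against the shares of all tested genes. With LPS, with DCVC, and with DCVC in LPS-treated cells 78.4%, 59.7% and 72.7% were called. At equal totals the shares raised and lowered were 22.4% and 59.5%, 46.1% and 20.1%, and 54.5% and 21.9% in that order. Other carriers of amino acids and peptides at the lysosome or cell surface, 6 of 6 tested, gave 4 raised and 2 lowered with LPS, 3 and 2 with DCVC, and 2 and 4 with DCVC in LPS-treated cells (3 and 3, 3 and 1, and 2 and 3 at equal totals). In this list SLC15A3, a lysosomal histidine and peptide carrier, rose by 1.96 ± 0.10 with LPS (adjusted p = 3.48e-15) and fell by 2.61 ± 0.10 with DCVC in LPS-treated cells (adjusted p = 1.1e-16). SLC66A1, the lysosomal exporter of arginine and lysine, gave -1.0 ± 0.09 (adjusted p = 2.01e-10) and 0.85 ± 0.09 (adjusted p = 6.96e-09) in these comparisons, which share the LPS libraries. Of 10 tested mitochondrial carriers, LPS raised 4 and lowered 4, DCVC raised 2 and lowered 5, and DCVC in LPS-treated cells raised 0 and lowered 8 (3 and 6, 3 and 3, and 2 and 4 at equal totals).

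Of 27 tested genes of amino acid sensing and mTORC1, LPS raised 10 and lowered 14, DCVC raised 3 and lowered 5, and DCVC in LPS-treated cells raised 10 and lowered 3. At equal totals these counts were 5 and 19, 18 and 2, and 22 and 2. Beside them stand 22.4% and 59.5%, 46.1% and 20.1%, and 54.5% and 21.9% of all tested genes. SESN2, a leucine sensor, rose by 2.20 ± 0.08 with LPS (adjusted p = 6.79e-18) and fell by 1.08 ± 0.08 with DCVC in LPS-treated cells (adjusted p = 1.59e-11), while SESN3 gave -1.18 ± 0.11 (adjusted p = 7.77e-10) and 1.62 ± 0.11 (adjusted p = 5.62e-12). Of 15 tested genes of the amino acid deprivation response, LPS raised 9 and lowered 5, DCVC raised 1 and lowered 8, and DCVC in LPS-treated cells raised 2 and lowered 11 (6 and 6, 4 and 6, and 5 and 5 at equal totals). ATF4, the transcription factor of that response, gave 0.60 ± 0.08 (adjusted p = 5.12e-07), -0.53 ± 0.08 (adjusted p = 9.18e-06) and -0.43 ± 0.08 (adjusted p = 7.14e-05) in that order, the last 0.00 at equal totals. ASNS, asparagine synthetase, was not tested, with group medians from 3.58 to 10.3 normalized counts. Of 19 tested genes of amino acid synthesis and use, LPS raised 8 and lowered 9, DCVC raised 5 and lowered 9, and DCVC in LPS-treated cells raised 3 and lowered 9 (3 and 11, 5 and 7, and 8 and 6 at equal totals). Arginase ARG1 had 1 read in all, and the nitric oxide synthase NOS2 fell by 4.52 ± 0.33 with LPS (adjusted p = 4.92e-12), from 126 to 268 normalized counts in Control to 2.67 to 11.8. IDO1, which breaks down tryptophan, had no read in Control, 5024 to 14920 normalized counts with LPS and 61.3 to 391 in DCVC_LPS, a log2 change of -6.21 ± 0.38 with DCVC in LPS-treated cells (adjusted p = 6.47e-13).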

How the data were processed

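Poly-A RNA libraries, 24 in 4 groups of 6, were analysed from 1 table. Its values are a signal, namely read counts that the authors divided by 1 factor per library, as read from the deposited values: in every library 100% were whole multiples of 1 read within 0.1 read. Per the submitters' processing notes, which give no roles, the build was hg38 and the tools were STAR, featureCounts 1.6.1, DESeq2 1.24.0, R 3.6.0, MultiQC 0.9 and FastQC 0.11.5. Which annotation was counted, whether strand was used and how reads with several hits were treated is not given in the sources used here.

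Of 58381 entries, 19595 (33.56%, holding 0.99% of the values) had no gene name and were left out, and 51 symbols on 2 entries were summed. Genes reaching a mean of 10, which were 13900, entered limma 3.58.1 (R 4.3.3, trended empirical Bayes) as log2(value + 1), with 24 libraries in 1 fit, each group having its mean, and 20 residual degrees of freedom. The pseudocount of 1 makes the changes of low genes smaller. Adjusted p-values are Benjamini-Hochberg values over all tested genes. The count tests edgeR 4.0.16 (quasi-likelihood, TMM) and DESeq2 1.42.0 ran on the recovered reads as alternatives, beside a pseudocount of 5, a minimum mean of 1, equal totals, letter pairs, a replicate block and each library left out, and the fits were tested on simulated data. With 200 of 13900 genes changed in simulated LPS minus Control counts, limma called 98% of changes of 1 and 100% of changes of 2 on the log2 scale. The simulated libraries were independent, with the same dispersion for every gene, matched totals and few changed genes. The data had letter pairs, unequal totals and far more genes called, so this outcome may not carry over to them. Ratios of reads have exact 95% intervals for counting error only.

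Members and lists were chosen with earlier results of these data known. Members were named when a pairwise comparison had an absolute log2 change of at least 1 with adjusted p under 0.05, when the difference between LPS changes did, or when they stood on a list of transporters; those under the minimum mean were named with over 30 reads. Positions and exon lengths come from GENCODE 29 on GRCh38.

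The replicate letters come from the sample titles, which do not say what they mark. All 36 correlations between the deviations of same-letter libraries of different groups were over 0.1 (0.134 to 0.539, median 0.33), so the letters were taken to pair the libraries, although the fit given throughout has no pairing term. Libraries also correlated across groups with the other letter of A and B, C and D, or E and F (median 0.286) and not outside these pairs (median -0.114). Within a group the letters of a pair also correlated (median 0.395). Neither the fit given throughout nor the letter block has a term for a pair within a group. Both count 6 separate libraries per group, so their p-values may be too small. The labels give no origin for these pairs, and results within each are given.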

Additional observations from a re-analysis of the deposited data

Results flagged for a closer look

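For 13 of the 22 members described with their values, the LPS change differed between cells given DCVC and cells not given it, by the test of that difference in limma. Over all tested genes 45.7% had such a difference, and some of the 22 were chosen for one of at least 1, so the count is a description. The difference, LPS change with DCVC minus LPS change without it, was -3.65 for SLC43A2, -1.93 for SLC1A2, -1.90 for SLC7A2, -1.13 for SLC38A2, -0.82 for SLC6A8, -0.60 for SLC7A6, -0.60 for SLC36A4, -0.58 for SLC7A1 and -0.33 for SLC43A3. It was 1.18 for SLC7A8, 0.88 for SLC43A1, 0.87 for SLC36A1 and 0.60 for SLC6A6. The adjusted p ran from 1.25e-08 for SLC43A2 to 0.034 for SLC36A4, and SLC7A1 (adjusted p = 0.0199), SLC43A3 (adjusted p = 0.0143) and SLC36A1 (adjusted p = 0.0205) were also near the threshold. The SLC36A4 call was lost when any of 10 single libraries was left out, with adjusted p up to 0.0675. In 88 groups of 6 values, 4 for each of the 22 members, no library lay apart from the other 5 by more than the 95% limit of Dixon's test. This test looks for 1 library apart, and libraries that deviate together can hide each other. For SLC43A2, Control A and B held 241.67 and 322.7 normalized counts, beside 113.5 to 129.73 in Control C to F.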

How the results depend on the processing

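The test used a mean of at least 10, a pseudocount of 1 and the deposited scale. Of 110 results, 22 members in 5 comparisons, 109 kept their direction and call with a pseudocount of 5, with a minimum mean of 1 and with edgeR, and 108 with DESeq2, which gave SLC1A5 -0.02 with DCVC and 0.01 for the difference of LPS changes. A pseudocount of 5 gave SLC6A12 a difference of LPS changes of -1.13 (adjusted p = 0.0162, against 0.237).

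At equal totals 84 kept direction and call. Those that changed sign were, with LPS, SLC1A5 -0.23, SLC7A5 -0.14 and SLC38A2 -0.38; with DCVC, SLC36A1 0.20; with DCVC in LPS-treated cells, SLC1A3 0.02, SLC1A5 0.40 and SLC7A7 0.14; with LPS in DCVC-treated cells, SLC1A5 -0.09 and SLC6A8 0.00; and for the difference of LPS changes SLC1A4 0.10, SLC1A5 0.14 and SLC38A1 0.00. With the sign kept, 9 calls were lost: with LPS SLC1A3 (0.39) and SLC7A6 (0.04), with DCVC SLC7A7 (-0.25), and with DCVC in LPS-treated cells SLC36A4 (-0.15). The rest were SLC6A6 (0.12) and SLC7A5 (0.14) with LPS in DCVC-treated cells, and the differences of SLC7A1 (-0.40), SLC36A4 (-0.42) and SLC43A3 (-0.15). Another 5 were gained. These were SLC6A6 with LPS (-0.66), SLC38A2 with DCVC (0.38) and SLC43A1 with DCVC in LPS-treated cells (0.59). SLC7A6 (-0.37) and SLC38A6 (-0.54) with LPS in DCVC-treated cells complete them.

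The letter pairs hold 2 libraries a group. In A and B the sign changed for SLC1A5 (-0.16) and SLC38A2 (-0.12) with LPS, for SLC1A2 (-0.26) and SLC1A5 (-0.28) with DCVC, and in the difference for SLC1A4 (0.23), SLC1A5 (0.24), SLC6A12 (0.27), SLC7A5 (-0.20), SLC7A7 (-0.28) and SLC38A9 (-0.04). In C and D it changed for SLC38A2 with DCVC (-0.01) and SLC7A7 with DCVC in LPS-treated cells (0.08). In E and F it changed for SLC6A6 with LPS (0.18), for SLC36A1 (0.19), SLC36A4 (-0.03) and SLC38A2 (-0.05) with DCVC, for SLC43A1 with DCVC in LPS-treated cells (-0.05) and for SLC38A9 in the difference (0.00). The members with a higher difference of LPS changes, 5 over all letters, numbered 8 in C and D and 2 in E and F, and those with a lower one, 10 over all letters, numbered 6 in E and F. Of the 110 results, 5 lost their call in A and B, 2 in C and D (SLC1A4 with LPS, SLC6A8 with DCVC in LPS-treated cells) and 14 in E and F. Calls were also gained with the sign kept, for 8 results in A and B, 13 in C and D and 5 in E and F. With DCVC, SLC38A2 was raised in A and B (0.46, adjusted p = 2.45e-05), beside -0.01 in C and D and -0.05 in E and F. SLC1A5 with DCVC was called lowered in A and B (adjusted p = 0.00712). Each such fit holds fewer libraries, and the cause of these differences between letter pairs was not tested.

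With the replicate letters as a block, members raised and lowered were 13 and 10 with LPS, 7 and 11 with DCVC, 7 and 15 with DCVC in LPS-treated cells, 12 and 11 with LPS in DCVC-treated cells, and 6 and 10 for the difference, where 82.9%, 68.1%, 78.8%, 70.1% and 56.4% of all tested genes were called. The block added the 9 calls given beside their results and changed no other call of a named member.

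Leaving out each library in turn, 2585 of 2640 values kept direction and call. Members raised and lowered stayed within 12 to 13 and 8 to 10 with LPS, 5 to 7 and 11 with DCVC, 7 and 12 with DCVC in LPS-treated cells, 10 to 11 and 8 to 9 with LPS in DCVC-treated cells, and 5 and 9 to 10 for the difference. Sign changes came only near 0: SLC1A5 -0.07 to 0.13, SLC36A1 -0.21 to 0.08 and SLC36A4 -0.08 to 0.14 with DCVC, and SLC1A5 -0.16 to 0.04 and SLC38A1 -0.29 to 0.00 for the difference. Without Control A or Control B, SLC1A5 rose with LPS (adjusted p down to 0.0021). Members with 30 reads or fewer in all were not compared.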
